A study of Monodelphis domestica and Mus musculus with 26 samples.

Results

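Spermatocyte-gated cells of the adult testis of the gray short-tailed opossum (Monodelphis domestica, a marsupial) were taken from 3 single-cell RNA libraries and numbered 2253 of 21747 kept cells. A kept cell had at least 1000 counts and at least 500 genes. The gate was a sum over 4 genes: a cell entered when its summed counts of DNAH9, ATP8A2, BMP5 and AATK reached 2.5. A cell was left out when MGLL, CYP2U1 and MAP7D2 (round spermatid genes) or PIWIL4, ELAVL4 and SLC24A4 (spermatogonia genes) summed to 1.5 or more, or when PRM1, GPR161, MSMP, PKHD1L1 and YIPF5 (elongating spermatid genes) made up 0.5% of its counts or more. These 15 genes chose the cells, so their levels are given as a description and support nothing.

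The series compares sperm formation between mouse and opossum testis in 26 samples. All groups are untreated whole testis, and the labels name no genetic change. The opossum groups are 3 adult single-cell libraries and 20 whole-testis (bulk) RNA libraries at 1, 2, 3 and 4 months and in adults. The mouse group is 3 adult C57BL6/J single-cell libraries. The testes were dispersed with collagenase and trypsin. The labels do not say whether libraries of a group came from separate animals, so spreads and p-values measure differences between these samples, which may be technical.

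Spermatocytes are the germ cells that pass through meiosis. Their homologous chromosomes pair along the synaptonemal complex, exchange strands at programmed breaks, and are then divided over 2 cell divisions into spermatids. In male mammals the X and Y chromosomes, which have little sequence in common, are packed into a sex body and silenced while the other chromosomes pair. Much of the RNA for the later sperm tail, including the dynein motors of its axoneme, is already made during this stage.

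The share of kept cells that passed the gate was 7.95% in library 1 (443 of 5572, exact 95% binomial interval 7.25% to 8.69%), 12.7% in library 2 (1032 of 8126, 11.98% to 13.4%) and 9.67% in library 3 (778 of 8049, 9.03% to 10.3%). The mean was 10.1% ± 2.41 (SD, n = 3). The intervals cover counting error only, and the 3 libraries differed by more than that. The gated cells were the deeper ones. Their median count was 5015, 2939 and 2552 in libraries 1 to 3, against 1821, 2224 and 1562 in all other kept cells, which is 2.75, 1.32 and 1.63 times as many. A gate on summed counts is easier to pass in a deeper cell, and that part of the share was not tested. With 2000 counts required of a cell, 17.8% of the kept cells passed. No gated cell shared its barcode with a gated cell of another library, and 38, 30 and 43 barcodes were shared between pairs of the whole matrices.

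The gate leaned on one gene. DNAH9, a heavy chain of axonemal dynein that lies on chromosome 2 (245828162 to 246584588), supplied 53.2%, 60.5% and 55.0% of the summed gate counts in libraries 1 to 3. ATP8A2, a phospholipid flippase on chromosome 4 (295073492 to 295928429), supplied 22.3%, 21.1% and 24.0%. BMP5, a secreted ligand of the bone morphogenetic protein family on chromosome 2 (305638975 to 305913702), supplied 14.98%, 11.01% and 12.6%. AATK, a membrane kinase on chromosome 2 (233757230 to 233901685), supplied the remaining 9.52%, 7.38% and 8.41%. Only 13.5%, 10.6% and 9.77% of the gated cells carried all 4 genes, and 25.3%, 9.79% and 13.0% carried no DNAH9 count. These positions are those of the deposited bulk tables, and the build behind them is not given in the sources used here.

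In CPM, the count of a gene scaled to the total of its class of cells in each library, DNAH9 stood at 975, 1362 and 1248 in the gated cells against 87.6, 97.3 and 93.3 in all other kept cells. ATP8A2 stood at 410, 474 and 544 against 72.0, 48.1 and 73.7. BMP5 stood at 275, 248 and 286 against 27.0, 15.5 and 17.8. AATK stood at 174, 166 and 191 against 21.8, 23.5 and 27.6. The gate set these differences.

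Cells at the edge of the gate had less meiotic RNA than those well inside it. SYCP1, a protein of the synaptonemal complex that the gate does not use, had 123, 256 and 319 CPM in the 107, 320 and 242 cells with gate sums of 1.5 to 2.5, just outside. It had 201, 282 and 396 CPM in the 69, 176 and 180 cells with sums of 2.5 to 3.5, just inside, and 709, 564 and 744 CPM at sums of 3.5 or more. VIM, a filament protein of somatic cells, went the other way, from 923, 323 and 372 CPM just outside to 406, 179 and 135 just inside and 162, 37.9 and 35.0 at 3.5 or more. The exclusions removed 162, 552 and 298 cells that had reached the gate sum, of which 30, 376 and 202 were over the limit for elongating spermatid genes.

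The label was set against marker genes that the gate did not use. Values here and below are CPM in libraries 1, 2 and 3, and a log2 ratio is the mean over the 3 libraries of log2 of (CPM + 1) in the gated cells over (CPM + 1) in the compared cells, ± SD with n = 3. A feature counts as higher or lower when it differed at least 2-fold in each library with at least 20 CPM on the higher side. A feature can thus enter through 1 class alone, and counts of features called are a description. The cells were clustered and gated on their own RNA, so these ratios carry no test.

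SYCP1 was higher, at 661, 528 and 685 CPM against 163, 104 and 133 in all other kept cells (log2 2.23 ± 0.20). PIWIL1, the PIWI protein of pachytene germ cells, had 363, 481 and 492 against 79.0, 52.1 and 53.8 (2.85 ± 0.57). CCNA1, the cyclin needed for the first meiotic division in male mice, had 167, 182 and 183 against 29.8, 23.2 and 30.6 (2.63 ± 0.25). MYBL1, the transcription factor of the pachytene programme, had 107, 125 and 128 against 36.0, 27.4 and 27.8 (1.95 ± 0.35). BOLL, an RNA-binding protein of the DAZ family, had 176, 255 and 308 against 28.5, 25.9 and 25.9 (3.12 ± 0.48). All of these genes were called higher, which requires 2-fold in each library, so a gap between the classes was largely built in.

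Other meiotic markers did not separate the cells. DMC1, the strand-exchange recombinase of early meiosis, had 23.0, 32.4 and 36.2 CPM against 21.1, 30.3 and 37.2. HORMAD1, a protein of unpaired chromosome axes, had 75.6, 78.9 and 106 against 36.5, 33.6 and 55.6, which missed 2-fold in 1 library. Without 2 clusters led by somatic genes, described below, HORMAD1 was higher (log2 1.31 ± 0.21). SYCE3 of the synaptonemal complex was on the low side with 129, 217 and 134 against 211, 404 and 272. HSPA2, a chaperone of spermatocytes and spermatids, had 334, 399 and 378 against 381, 393 and 438. KIT, a receptor of differentiating spermatogonia, was nearly absent at 0.584, 2.87 and 0.82 CPM. UCHL1, an enzyme abundant in spermatogonia, had 85.1, 82.3 and 82.6 against 1521, 590 and 393. Summed over all gated cells the markers therefore fitted the label for spermatocytes with SYCP1, PIWIL1 and CCNA1, though not in each cluster of them, and early meiotic DMC1 did not set them apart.

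**Figure D1:**
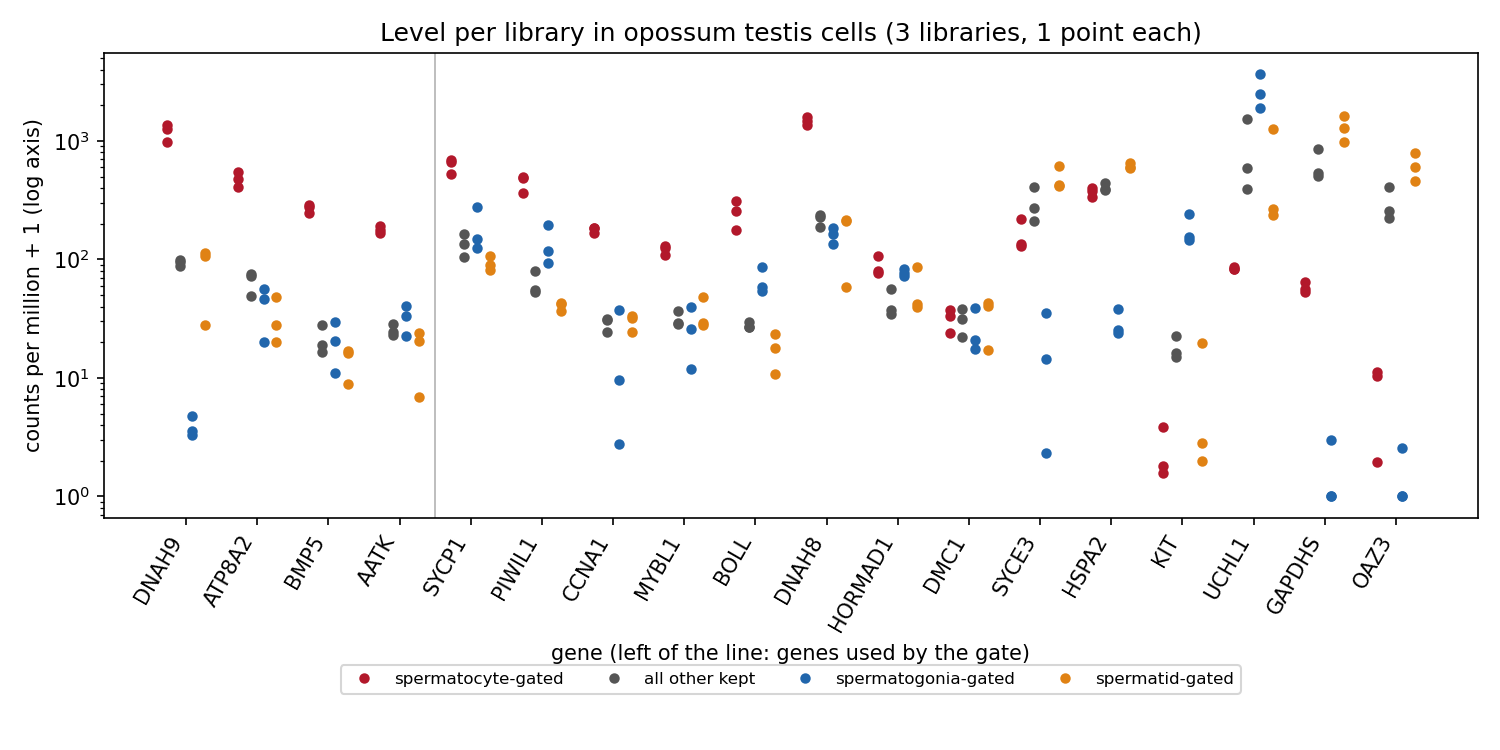
Level of 18 genes per library (CPM + 1, log axis) in the spermatocyte-gated cells, all other kept cells, spermatogonia-gated cells and cells at or over the limit for elongating spermatid genes (spermatid-gated), with 1 point per library. Left of the line are the genes of the gate; to its right SYCP1, PIWIL1, CCNA1, MYBL1, BOLL and DNAH8 lie highest in the gated cells, while HORMAD1, DMC1, SYCE3 and HSPA2 lie among the other classes.

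Somatic RNA was present in the gated cells, unevenly over the libraries. The 9 immune markers found in the files summed to 1454 CPM in library 1, against 335 and 182 in libraries 2 and 3, and to 294, 283 and 496 in all other kept cells. The peritubular and stromal markers summed to 357, 113 and 111 CPM against 1323, 680 and 1354. The 5 elongating spermatid genes of the gate still summed to 378, 1225 and 605 CPM in the gated cells, against 10224, 21379 and 11087 in the others. Clustering of the gated cells alone placed most of the somatic RNA in 2 of 7 clusters, numbers 5 and 6, with 338 cells. List counts without those clusters are given together after the lists, and the clusters themselves are described further on.

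Against all other kept cells, 2039 of 8192 compared features were higher in the gated cells (24.9%) and 1515 were lower (18.5%). Since the gate chose the cells, nothing is read from these shares. Of the higher features, 1160 carry a gene symbol. Without clusters 5 and 6, 2385 features were higher, 2023 of them shared with the full set, and 1998 were lower, 1459 of them shared. TMM factors moved the mean log2 ratio by 0.11 and gave 2217 higher and 1438 lower.

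Among features with a symbol, SLC9A3 and GALNT14 had the largest ratios. SLC9A3, a sodium-proton exchanger, had 118, 117 and 113 CPM against 5.23, 7.58 and 5.88 (log2 4.03 ± 0.24). GALNT14, an enzyme that starts mucin-type O-glycans, had 328, 328 and 296 against 13.8, 21.6 and 21.1 (4.03 ± 0.39). FGF12, an intracellular fibroblast growth factor homologue that binds sodium channels, had 272, 384 and 264 against 20.03, 20.9 and 18.2 (3.88 ± 0.23). The leading genes were picked by their ratio among features called higher, so the gap between the classes was built in by that choice.

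TIAM2, an exchange factor for the GTPase RAC1, had 317, 596 and 528 CPM against 44.2, 36.4 and 29.2 (3.65 ± 0.72). TRPC7, a calcium-permeable channel, had 648, 770 and 681 against 67.4, 49.7 and 52.1 (3.62 ± 0.34). SORCS3, a sorting receptor, had 745, 659 and 643 against 49.98, 54.4 and 66.3 (3.57 ± 0.31). TIAM2 varied most over the libraries and was lowest in library 1.

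ADCY10, the soluble adenylyl cyclase that bicarbonate activates in sperm, had 244, 315 and 302 CPM against 23.9, 20.4 and 23.2 (3.61 ± 0.30). SLC9C1, the sperm-specific sodium-proton exchanger, had 363, 252 and 277 against 19.0, 24.2 and 31.0 (3.55 ± 0.57). SPATA16, an acrosome protein whose loss gives round-headed sperm, had 724, 742 and 718 against 62.5, 79.2 and 69.5 (3.36 ± 0.15). They too were picked by their ratio, so their separation is no further result.

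TESMIN, a testis protein of spermatocytes with cysteine-rich DNA-binding repeats, had 114, 169 and 172 CPM against 15.01, 10.7 and 10.5 (3.54 ± 0.60). NEK10, a kinase of the NIMA family, had 570, 630 and 605 against 51.7, 58.0 and 67.0 (3.34 ± 0.16). SYT14, of the synaptotagmin family, had 540, 579 and 582 against 58.3, 54.4 and 50.3 (3.36 ± 0.16). The remaining leaders were XKR4, RFX8, ADAMTS18, BCO1, PIF1, CCDC38, LAMA3, CDH16, EPB41L4A, THEMIS, MYT1, NFASC and EYA1, with mean ratios of 3.26 to 3.53.

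The largest ratio of all belonged to a feature with no symbol. ENSMODG00000048284 had 257, 233 and 231 CPM against 13.1, 11.6 and 12.4 (log2 4.17). ENSMODG00000013137 had 1184, 1582 and 976 against 71.5, 79.5 and 54.8 (4.15), which made it one of the more abundant RNAs of these cells. What these features encode is not given in the files.

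The features with the lowest ratios were high in the cells at or over the limit for elongating spermatid genes, RNF148 at 236, 224 and 314 CPM. RNF148, a testis ubiquitin ligase, had 0.242, 0.339 and 0 CPM against 85.8, 113 and 160, and no fold is given for it. GLIPR1 had 0, 4.21 and 3.22 CPM against 104, 235 and 370, and C16orf90 had 0, 3.78 and 0.976 against 107, 219 and 183. MCFD2, a cargo receptor of the early secretory pathway, had 0.658, 19.4 and 16.7 against 335, 643 and 579 (log2 -5.89 ± 1.53). Library 2 had the highest gated level of C16orf90, GLIPR1 and MCFD2, and it also had the highest level of the elongating spermatid genes.

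Of the synaptonemal complex, 5 of 14 listed symbols were found and 4 were abundant enough to compare. SYCP1 and FKBP6, an immunophilin of the paired axes, were higher, FKBP6 at 143, 186 and 180 CPM against 57.7, 41.4 and 23.0. Among genes of cohesin, its regulators and the meiotic kinetochore, 3 of 9 were higher (STAG3, PDS5A and PDS5B) and 1 was lower. Over all features compared 24.9% were higher and 18.5% lower. The meiotic subunit STAG3 had 59.9, 44.9 and 59.6 CPM against 14.6, 14.5 and 17.5, and RAD21, the general kleisin, had 57.6, 53.7 and 36.4 against 128, 116 and 96.9. Over all features compared the median ratio was 0.22, and it was 1.59 for the synaptonemal list and 1.04 for the cohesin and kinetochore list.

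Of 8 compared genes for breaks and strand exchange, 3 were higher, among them MEI4 and RPA1, none was lower and 5 were neither, where 24.9% of all features were higher. MEI4, a partner of the break-forming enzyme, had 229, 297 and 339 CPM against 56.8, 38.6 and 37.6 (log2 2.68 ± 0.61). Of 5 crossover genes 3 were higher, among them the helicase HFM1 at 72.1, 51.7 and 64.5 CPM against 14.7, 7.73 and 9.00, together with RNF212B and MSH4. Without clusters 5 and 6 all 7 crossover genes then compared, of 11 found, were higher, where 28.6% of all features were higher. MLH3 and SHOC1 had been compared before and were added. CCNB1IP1 and CNTD1 were too low to compare in the full gate. They entered through their level in the gated cells, which favours a call of higher.

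Of 7 compared genes of the sex body and damage signalling, 3 were higher, among them RNF8 and CHEK2, and none was lower, where 24.9% of all features were higher. RNF8, a ubiquitin ligase of the damage response, had 151, 168 and 147 against 58.0, 33.2 and 30.4. RBM46 and YTHDC2, RNA-binding proteins of meiotic entry, were higher among 4 compared.

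The piRNA pathway makes small RNAs that guard germ cells against transposons, and 12 of its 16 compared genes were higher with none lower, where 24.9% of all features were higher and 18.5% lower. TDRD9, a helicase of the pathway, had 556, 614 and 573 CPM against 135, 113 and 111 (log2 2.28 ± 0.21). RNF17 had 460, 472 and 610 against 114, 80.0 and 113, and TDRD1 had 348, 394 and 423 against 111, 72.9 and 72.4. MAEL was the exception in direction with 79.6, 119 and 120 CPM against 128, 256 and 336, and it did not reach 2-fold in every library.

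Of 11 compared transcription factors and RNA regulators of meiosis, 6 were higher (KHDRBS3, RFX3, BOLL, DDX25, RFX2, MYBL1) and none was lower, where 24.9% of all features were higher and 18.5% lower. KHDRBS3, a splicing regulator, had 677, 896 and 815 CPM against 134, 107 and 95.7 (log2 2.82 ± 0.42). RFX2, which drives genes of the cilium in germ cells, had 130, 108 and 134 against 29.1, 25.8 and 33.8 (2.04 ± 0.08). Among 10 division genes, CCNA1, TTK and FBXO43, an inhibitor of the anaphase-promoting complex, were higher and the other 7 were neither, a share near that of all features.

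Genes of the axoneme were abundant in the gated cells. The 16 axonemal dyneins found summed to 6621, 6234 and 6115 CPM, against 889, 1054 and 1100 in all other kept cells and 365, 404 and 434 in the spermatogonia-gated cells. DNAH9 is one of these 16 and was used by the gate. Of the 14 others abundant enough to compare, 11 were higher and 1 was lower, where 24.9% of all features were higher and 18.5% lower. Of 10 compared genes of the elongating spermatid list, which holds other sperm tail genes, 9 were lower, among them AKAP4, ODF1 and ODF2. The gate moved cells rich in elongating spermatid RNA to the compared class. That direction was thus favoured by the gate and supports nothing.

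DNAH8, an outer-arm heavy chain of the sperm tail, had 1598, 1373 and 1471 CPM against 187, 225 and 234 (log2 2.78 ± 0.27), more than DNAH9 itself. DNAI3, an intermediate chain, had 479, 784 and 467 against 50.3, 72.9 and 61.8 (3.18 ± 0.26). DNAH7, an inner-arm heavy chain, had 1005, 548 and 685 against 105, 106 and 133 (2.65 ± 0.51). DNAH3, another inner-arm heavy chain, went the other way with 23.7, 19.1 and 20.8 CPM against 63.3, 87.2 and 123 (-2.01 ± 0.58). These libraries read the 3' ends of transcripts, so CPM was not scaled by length.

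Of 29 compared genes for dynein assembly, docking and radial spokes, 15 were higher and 2 were lower, beside the same 24.9% and 18.5% of all features. CFAP61 had 1068, 808 and 1147 CPM against 96.1, 122 and 185, and HYDIN, of the central pair, had 943, 873 and 980 against 90.8, 120 and 129. DRC7 of the nexin-dynein regulatory complex was lower at 45.9, 135 and 107 CPM against 267, 413 and 381, and so was GAS8 of the same complex, a call that was lost without clusters 5 and 6. Of 24 genes of intraflagellar transport, 12 were higher and IFT22 was lower. DYNC2H1, the retrograde motor, had 900, 863 and 911 CPM against 146, 151 and 173, and IFT140 had 561, 579 and 694 against 70.4, 65.0 and 88.1.

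The relatives of the other gate genes were mixed, and their counts stand beside 24.9% of all features higher and 18.5% lower. BMP5 signals through receptors and SMAD proteins, and of 7 compared members of that pathway BMPR2, ACVR2A and SMAD5 were higher and SMAD1 and ID3 were lower. BMPR2, the type II receptor, had 141, 170 and 169 CPM against 68.7, 46.1 and 75.1. Of 7 phospholipid flippase genes 4 were higher, among them ATP9B at 980, 962 and 970 CPM against 257, 211 and 273 and TMEM30A, the subunit that brings flippases to the membrane, at 72.4, 54.5 and 72.4 against 28.4, 16.4 and 26.6. Of 11 kinases related to AATK or known from testis, STK33, STK31 and NEK11 were higher and the spermatid kinases TSSK1B, TSSK2 and TSSK3 were lower.

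Without clusters 5 and 6 more features were called in both directions against all other kept cells: 2385 of 8327 were higher (28.6%) and 1998 were lower (24.0%). The axonemal dyneins then had 13 of 14 higher and 1 lower, with DNAI4 and DNALI1 added. The assembly and docking genes had 18 of 29 higher and 1 lower, and the piRNA genes 14 of 16 higher, with DDX4 and TDRD7 added. Of the synaptonemal genes 3 of 4 were higher, and of the cohesin and kinetochore genes 5 of 9 with 1 lower. Of the genes for breaks and strand exchange 5 of 10 were higher, with SPO11, the break-forming enzyme, and MEIOB added. Of the sex body genes 4 of 7 were higher, of meiotic entry 4 of 5 (MEIOC and STRA8 added), of transcription factors and RNA regulators 8 of 11, and of division genes 5 of 10. SPO11, MEIOB and STRA8 were too low to compare in the full gate and entered through their level in the gated cells. The genes of intraflagellar transport kept 12 higher and 1 lower of 24. The BMP pathway had 3 higher and 3 lower of 7 (BMPR1B added), the flippases 4 higher and 1 lower of 6, and the kinases 5 higher and 3 lower of 11.

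**Figure D2:**
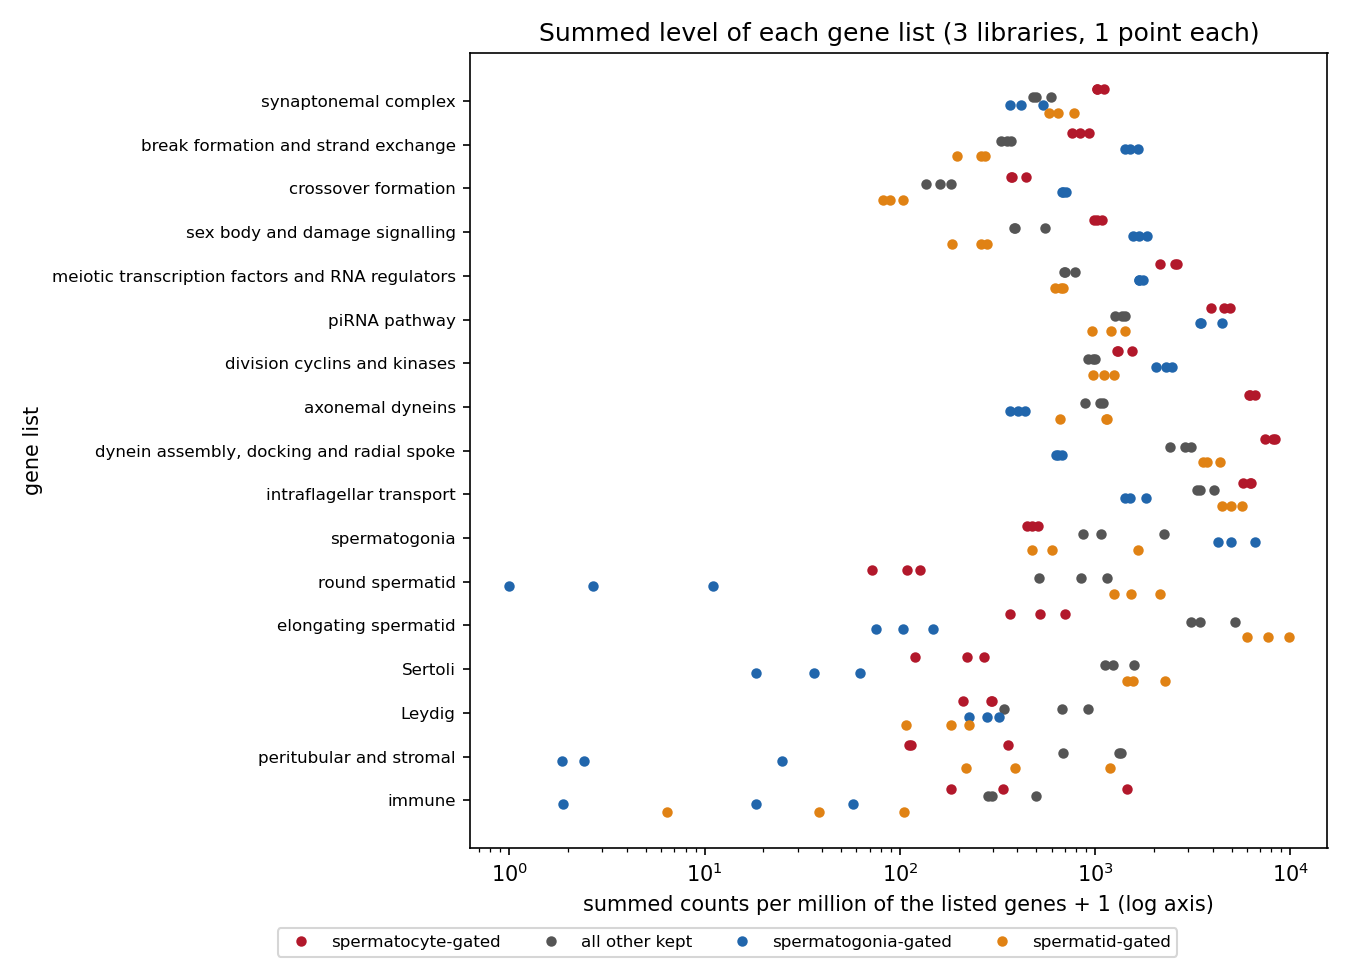
Summed CPM + 1 (log axis) of the found genes of 17 lists in 4 classes of opossum testis cells, with 1 point per library. The axonemal dyneins sum to between 6115 and 6621 in the spermatocyte-gated cells and lie at 1150 or less in the other classes; the immune list has 1 gated library, at 1454, apart from the others.

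Against the 26, 185 and 105 cells gated on the spermatogonia genes in libraries 1 to 3, 2241 of 8171 compared features were higher (27.4%) and 2266 were lower (27.7%). The split depended on scaling: with TMM factors 2943 were higher and 1074 lower, a shift of 0.64 in the mean log2 ratio. Library 1 holds few such cells. The axonemal genes stood apart under both scalings. Of the axonemal dyneins 12 of 13 compared were higher, 26 of 28 assembly and docking genes, and 18 of 24 genes of intraflagellar transport, with none lower in any of these lists. SPAG17, of the central pair, had 1039, 697 and 823 CPM in the spermatocyte-gated cells against 0, 0.523 and 1.75, and KIF9, a kinesin of the axoneme, had 361, 295 and 442 against 0 in each library.

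The recombination genes did not share that pattern. Of 8 compared crossover genes 1 was higher and 3 lower than in the spermatogonia-gated cells, and of 10 genes for breaks and strand exchange none was higher and 3 were lower. With TMM factors these counts became 2 higher and none lower of 9, and 3 higher and 2 lower of 12, so their direction depends on the scaling. MEI4 had 229, 297 and 339 CPM against 143, 140 and 143, and MSH4 had 31.8, 33.5 and 32.4 against 61.3, 63.2 and 89.3. Neither of these genes reached 2-fold in every library. The piRNA genes had 4 higher and 1 lower of 17, with TDRD9 at 556, 614 and 573 against 625, 597 and 779. With TMM factors 7 of 17 piRNA genes were higher and none lower. These list counts stand beside 27.4% of all features higher and 27.7% lower. With TMM factors 2943 features were higher and 1074 lower, so more features were called higher in general. KIT was lower, with 146, 152 and 242 CPM in the spermatogonia-gated cells (log2 -6.30 ± 0.90).

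SPP1 was among the features highest over the spermatogonia-gated cells, at 286, 252 and 472 CPM against 0. It is a secreted protein of macrophages among other cells, and without clusters 5 and 6 it had 0, 5.84 and 0 CPM in the gated cells. Its level in the gated cells thus lay in those clusters.

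The cells gated on the round spermatid genes numbered 53, 83 and 113, and they carried 636, 959 and 779 CPM of STAR, the cholesterol transporter of Leydig cells. Their 6 Leydig cell markers summed to 1227, 1730 and 1497 CPM and their 9 round spermatid markers to 596, 640 and 866, against 210.0, 296 and 290.4 and 70.8, 125 and 108 in the spermatocyte-gated cells. They thus carried markers of both cell types. Against them 2022 of 8071 features were higher (25.1%) and 1564 lower (19.4%), or 2623 and 1105 with TMM factors. The 9623 cells at or over the limit for elongating spermatid genes (spermatid-gated) were therefore added after the data were seen. That limit alone chose them, and they carried somatic markers too. Their Sertoli cell list summed to 1448, 2277 and 1558 CPM and their peritubular and stromal list to 386, 217 and 1196. Their elongating spermatid markers summed to 7708, 9783 and 6012. Against these, 2984 of 7749 features were higher in the spermatocyte-gated cells (38.5%) and 1371 lower (17.7%). With TMM factors, which moved the mean log2 ratio by -0.42, these were 2535 and 1789.

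TIAM2 had the largest ratio over these later cells among features with a symbol, at 317, 596 and 528 CPM against 4.90, 30.7 and 18.0 (log2 4.93 ± 0.77). SYT14 followed at 540, 579 and 582 against 9.34, 33.9 and 32.7 (4.63 ± 0.94). Of the piRNA genes 12 of 16 were higher and 1, MAEL, was lower, at 79.6, 119 and 120 CPM against 237, 414 and 547. All 11 compared elongating spermatid markers and 7 of 8 round spermatid markers were lower. The compared cells were chosen by elongating spermatid genes, so that direction was favoured in advance. TSSK2 had 3.69, 4.73 and 4.44 CPM against 297, 541 and 344, and DNAH3 had 23.7, 19.1 and 20.8 against 102, 144 and 189.

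C1QC, a complement gene of macrophages, also stood among the leaders over these cells, at 367, 70.8 and 55.9 CPM against 0.107, 5.14 and 21.7 (log2 4.42 ± 3.61). Library 1 set that value, and without clusters 5 and 6 the ratio turned to -1.90.

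X-linked RNA was low in the gated cells. Of their counts 0.731%, 0.623% and 0.489% came from the 781 X-linked features, a mean of 0.614% ± 0.121 (SD, n = 3). Without clusters 5 and 6 the mean share was 0.316%. In all other kept cells it was 3.98%, 3.15% and 2.14%, and in the spermatogonia-gated cells 2.86%, 2.96% and 2.77%. The log2 ratio of the shares was -2.31 ± 0.16 against all other cells and -2.24 ± 0.26 against the spermatogonia-gated cells, and the classes did not overlap in any library. The X-linked share in the cells over the elongating limit was 4.21%, 3.04% and 1.99%. No autosome had a share that differed by more than 0.27 on the log2 scale in any library against all other kept cells.

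The low share was not that of a few abundant genes alone. At 20 CPM or more in each library stood 33 X-linked features in the gated cells, 130 in all other kept cells, 159 in the spermatogonia-gated cells and 77 in the cells over the elongating limit. Of features outside the X, 6519, 6465, 5780 and 4457 reached that level in the same 4 classes. Counts of X-linked features called lower are not given, since most of those compared reached the minimum only in the other class. SSR4, a subunit of the protein translocon complex, had 339, 258 and 183 CPM against 1143, 1004 and 885. ATRX, a chromatin remodeller, had 148, 68.8 and 55.6 against 716, 732 and 642 in the spermatogonia-gated cells. Without the 2 most abundant X-linked features of the gated cells the share was 0.542% ± 0.0931 in them and 2.56% ± 0.538 in the others.

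Higher in the gated cells than in all other kept cells were 3 X-linked features, which have no symbol and were named after their values were seen. ENSMODG00000028019 (X, 36792408 to 36865454) had 190, 229 and 325 CPM against 43.5, 66.2 and 65.1 (log2 2.06 ± 0.27). ENSMODG00000044065 (X, 48033876 to 48179148) had 140, 46.1 and 92.8 against 25.9, 17.6 and 33.6. ENSMODG00000048043 (X, 43034369 to 43036402) had 33.6, 26.3 and 29.6 against 11.6, 11.8 and 10.6. All 3 were also at or below 85.1 CPM in every library of the spermatogonia-gated cells, the last with at most 1.27 CPM.

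**Figure D3:**
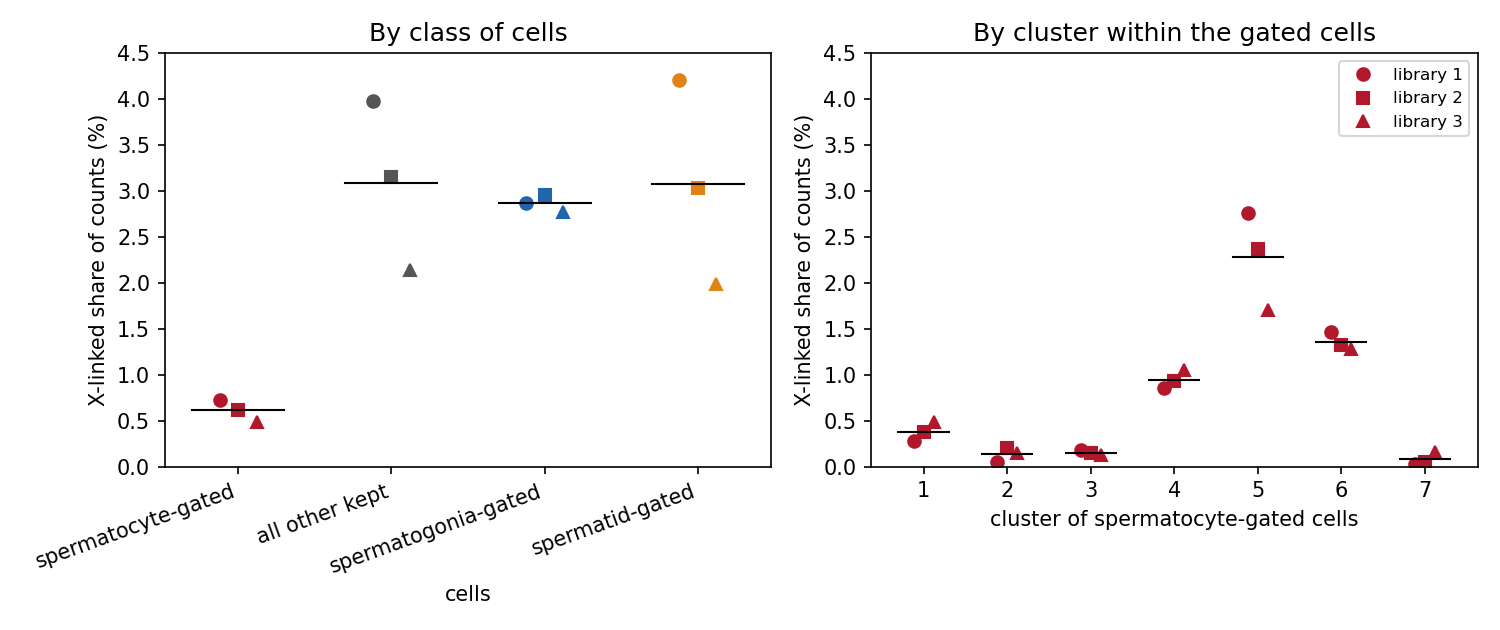
Left, X-linked share of counts (%) in 4 classes of opossum cells; right, the same share in the 7 clusters of the spermatocyte-gated cells. Marker shapes are libraries 1 to 3 and the bar is their mean; the gated cells lie at 0.489% to 0.731% and clusters 5 and 6, with means of 2.28% and 1.36%, lie highest among the clusters.

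Clustering of the 2253 gated cells alone gave 7 groups, which are called by number because they were drawn from the same RNA that describes them. Cluster 3 (373 cells) held the synaptonemal genes. SYCP1 stood there at 1859, 1254 and 1590 CPM in libraries 1 to 3 and HORMAD1 at 250, 201 and 250, and the synaptonemal list summed to 2994, 2447 and 2621. DMRTC2, a DM-domain factor of pachytene cells in mice, had 67.4, 83.2 and 51.2 CPM there and at most 5.94 in every other cluster and library. Genes of earlier meiosis were high there too. Over the pooled libraries DMC1 had 73.3 CPM against 14.7 in the other gated cells, and STRA8 had 77.7 against 3.08. SPO11 had 58.1 against 6.90 and MEIOB 75.0 against 6.36. REC8 went the other way, with 3.90 against 8.97. The axonemal dyneins were low in it, at 2584, 3133 and 2412 CPM, and its X-linked share was 0.155% ± 0.026.

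Cluster 2 (423 cells) was marked by LAMA3, a laminin chain, at 1819, 1433 and 1309 CPM, and by TRPC6, a calcium-permeable channel. PIWIL1 stood there at 1051, 821 and 617 CPM and DNAH9 at 2220, 2242 and 2149, with an X-linked share of 0.137% ± 0.075. Cluster 7 (124 cells) had the highest CCNA1, at 486, 600 and 617 CPM, the highest GALNT14, at 1905, 1691 and 1896, and an X-linked share of 0.084% ± 0.069, whose library values overlapped those of clusters 2 and 3. DPP6, a membrane protein related to dipeptidyl peptidases, had 1097, 995 and 1056 CPM there. Over the pooled libraries SYCP1 had 145 CPM in cluster 7, near its level in all other kept cells. The synaptonemal list summed to 220 CPM there, below the 478, 591 and 495 of all other kept cells. PIWIL1, at 914 CPM, and MYBL1, at 170, stood above their levels in those cells. The markers of the label were thus mixed in cluster 7.

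Cluster 1 (653 cells), the largest, held the axonemal dyneins at 13715, 12956 and 11795 CPM, with DNAI2, an outer-arm intermediate chain, at 414, 384 and 363. CCNA1 was at 307, 303 and 364 there and the X-linked share at 0.382% ± 0.0997. Cluster 4 (342 cells) was marked by UNC93A at 1576, 1073 and 1510 CPM and FAM135B at 2544, 1947 and 2083. Its axonemal dyneins summed to 11898, 8751 and 8995 CPM, next after cluster 1 in each library. It had the round spermatid markers at 656, 843 and 736 CPM and an X-linked share of 0.947% ± 0.099. SYCP1 stood there at 190, 168 and 152 CPM, PIWIL1 at 61.7, 55.2 and 58.9, MYBL1 at 44.2, 41.5 and 31.3, and BOLL at 25.8 over the pooled libraries, all near their levels in all other kept cells. CCNA1, at 157, 97.0 and 127 CPM, stayed above its level in those cells. By SYCP1, PIWIL1, MYBL1 and BOLL the label of spermatocytes thus did not hold for cluster 4. GALNT14 and LAMA3, among the leaders over all gated cells, were thus each high in different clusters.

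Clusters 5 (202 cells) and 6 (136 cells) were led by somatic genes. MYH11, smooth muscle myosin, had 2098, 301 and 417 CPM in cluster 5, where the peritubular and stromal markers summed to 3042, 665 and 957 and the Leydig cell markers to 745, 1358 and 1860, and 41.6% of its cells were in the top 8% of doublet scores. SYCP1 had 101, 158 and 255 CPM there, PIWIL1 68.1, 208 and 143, and MYBL1 60.4, 53.8 and 50.01. In library 1 SYCP1 and PIWIL1 lay under their level in all other kept cells and in libraries 2 and 3 above it, and MYBL1 lay above by less than 2-fold, so the label was not borne out in every library. DNAH9, a gene of the gate, had 428, 727 and 747 CPM. In cluster 6 the immune markers summed to 9729, 7442 and 6144 CPM with C1QC at 2480, 1691 and 2061, and DNAH9 had 24.0, 27.9 and 0 CPM. Its cells passed the gate mainly on ATP8A2 (539, 768 and 1164 CPM) and AATK. SYCP1 had 7.09, 69.0 and 52.6 CPM in cluster 6, so the label did not hold for it.

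The clusters were not shared evenly by the libraries. Cluster 1 held 39.1%, 25.1% and 28.4% of the gated cells of libraries 1 to 3, cluster 2 held 4.74%, 23.7% and 20.2%, and cluster 6 held 14.2%, 4.75% and 3.08%. Library 1 thus stood apart in both directions. Without clusters 5 and 6 the X-linked share was 0.316%, the DNAH9 level 1244, 1531 and 1332 CPM, and the immune list 6.10, 35.6 and 9.39 CPM.

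**Figure D4:**
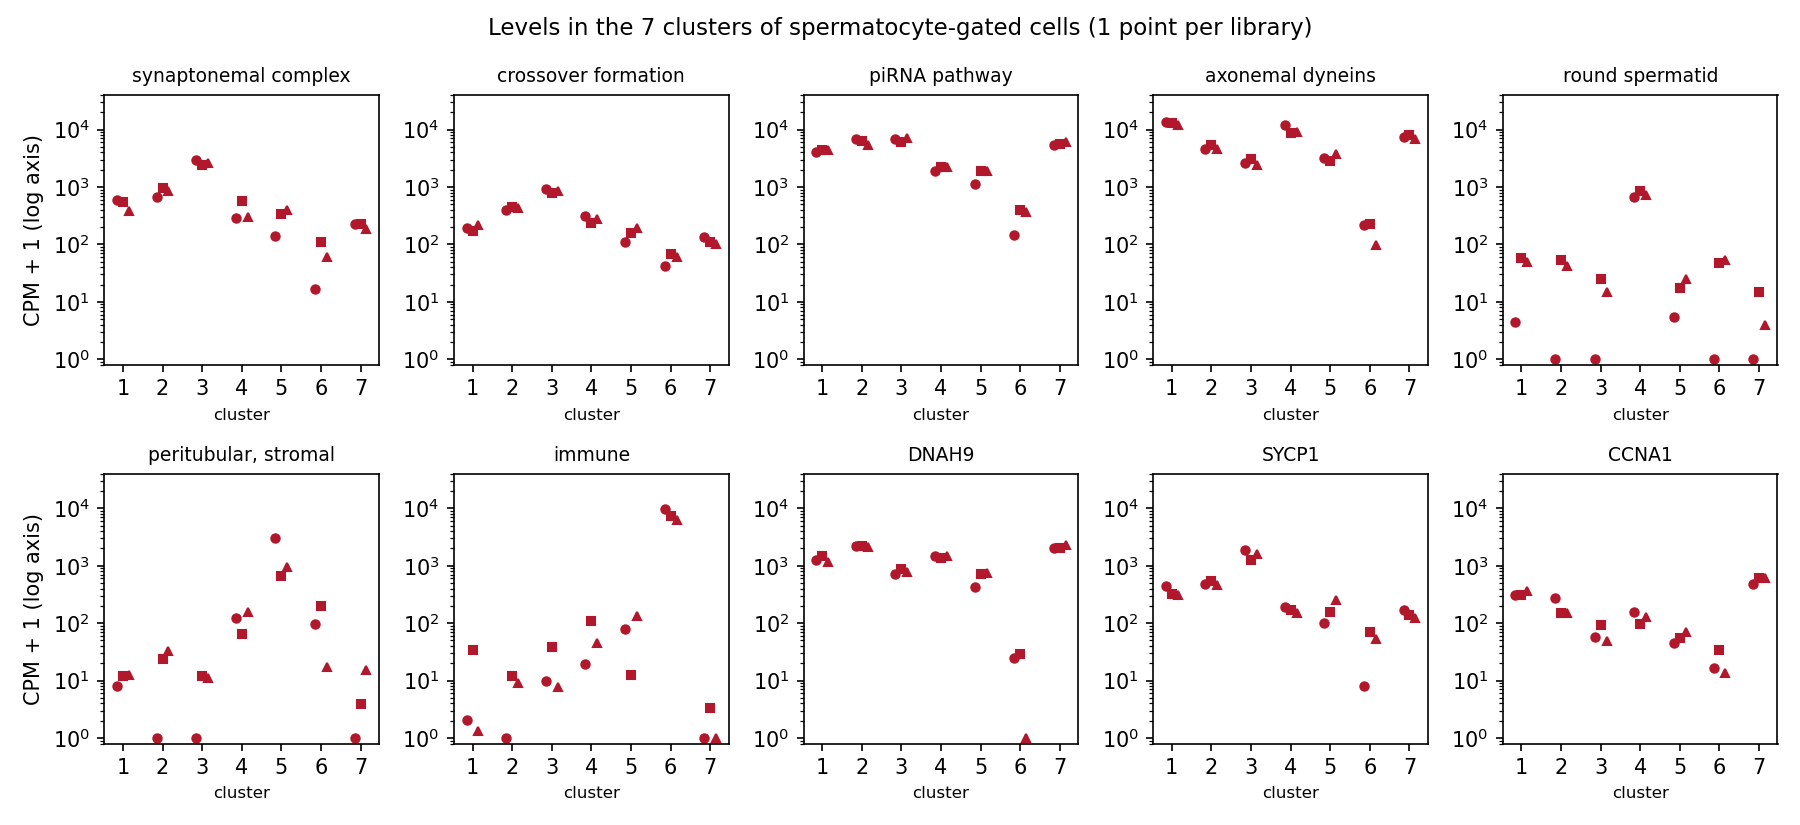
Levels (CPM + 1, log axis) of 7 gene lists and of DNAH9, SYCP1 and CCNA1 in the 7 clusters of the spermatocyte-gated cells; marker shapes are the 3 libraries. Cluster 3 is highest for the synaptonemal list and SYCP1, cluster 1 for the axonemal dyneins, cluster 4 for round spermatid markers, cluster 5 for stromal and cluster 6 for immune markers.

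In the mouse libraries a gate on mouse meiotic genes (Sycp1, Sycp2, Sycp3, Smc1b, Hormad1, Meiob, Piwil1 and Ccna1, with limits on spermatid genes) took 958, 1662 and 2321 cells of 8138, 7835 and 9472. The gates differ between species, so the values are set side by side with no test. Of the opossum's gate genes, Dnah9 had 1.30, 0.946 and 2.29 CPM in the mouse gated cells and Bmp5 and Aatk were also too low to compare. Atp8a2 was lower in the mouse gated cells than in the other mouse cells (log2 -3.30 ± 0.31). The 4 opossum gate genes thus did not mark the mouse cells taken by these meiotic genes.

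Of the opossum features higher in the gated cells, 1114 matched a mouse gene by symbol and 498 were abundant enough in mouse to compare. There 117 of them (23.5%) were higher in the mouse gated cells and 37 (7.43%) were lower, against 18.2% and 14.2% of all 3399 matched genes compared. Of the 25 leading opossum genes, 7 could be compared in mouse. TESMIN was higher in both species, with 634, 382 and 317 CPM against 91.7, 117 and 27.5 in mouse, and BCO1 was lower in mouse. Dnah8 was higher in mouse, at 473, 336 and 959 CPM against 98.4, 104 and 161, and Dnah3 was lower, at 4.00, 11.4 and 21.1 against 38.9, 37.6 and 154, each in the direction seen in opossum.

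Whole opossum testis at different ages gave libraries that the gate did not use. Of the 20, the 16 polyA-selected ones entered the fit, with 2 at 1 month, 1 at 2 months, 4 at 3 months, 3 at 4 months and 6 adult. The 4 ribosomal RNA-depleted libraries are shown and not tested in the main fit. Levels are in TPM, which scales reads by transcript length and library total, tests are limma on log2(TPM + 1) with Benjamini-Hochberg adjustment over 18890 genes, and a gene was called at an adjusted p under 0.05 with a log2 difference of at least 1. The pseudocount understates the change of low genes. In bulk tissue, fewer cells of a type and less RNA per cell cannot be told apart. The 3 contrasts share libraries and are given side by side.

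Most features that were higher in the gated cells rose between 1 and 3 months. Of 2039 such features 1829 were tested. Of these 1108 rose (60.6%) and 78 fell (4.26%), where 37.5% of all tested genes rose and 15.5% fell. Their median log2 difference was 1.90, against 0.82 over all genes. Of the features lower in the gated cells 699 of 1447 tested rose as well (48.3%) and 291 fell (20.1%). All 11 elongating spermatid markers tested rose, so the rise was shared with genes of later cells. From 3 months to adult 38 of the 1829 fell (2.08%) and 1 rose, where 1.14% of all genes fell and 1.24% rose, with a median of -0.66 against -0.20. Of the features lower in the gated cells 115 of 1447 rose there by limma (7.95%), a count of 36 to 91 when any 1 of the 3-month replicates or of adult replicates 4, 5 and 7 was left out and 275 without adult replicate 1. From 1 month to adult 830 of the features higher in the gated cells rose (45.4%) and 105 fell (5.74%), where 28.9% of all genes rose and 15.4% fell. Of the features lower in the gated cells 714 of 1447 rose over that span (49.3%) and 272 fell (18.8%). The larger share that rose was thus not particular to the features higher in the gated cells.

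The count of 38 rested on single libraries. It was 1 to 5 when any 1 of 3-month replicates 1 to 4 or adult replicates 4 or 7 was left out, and 13 without adult replicate 5. It was 94, 165 and 96 without adult replicates 1, 3 and 6. The rise from 1 month to adult counted 481 and 466 features without 1-month replicates 1 and 2. Adult replicate 1 stood low: the features higher in the gated cells summed to 18403 TPM there, against a median of 50989 and a highest value of 65907 over the 6 adult libraries, and it had 13166 genes at 1 TPM or more. Adult replicate 3 had 14576 such genes, 4-month replicate 3 had 13871 and the 1-month libraries had 12156 and 12108. The 3-month libraries had 15629 to 16416. The part of gene detection in the age contrasts was not tested.

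Of the gate genes, ATP8A2 had 3.27 and 3.79 TPM at 1 month, 46.3 to 54.6 at 3 months and 8.20 to 38.6 in adults (lowest and highest, median 24.7). It rose by 3.48 on the log2 scale from 1 to 3 months (SE 0.46, limma adjusted p = 2.65e-05). DNAH9 had 0.227 and 0.129 TPM at 1 month and 3.09, 2.49, 2.87 and 1.88 at 3 months (log2 1.59, SE 0.42, limma adjusted p = 0.00525), which missed the threshold without 1-month replicate 2 (limma adjusted p = 0.051) and, by size, with FPKM (log2 0.95). AATK had 0.0283 and 0.0107 TPM at 1 month and 7.55, 8.56, 10.1 and 5.04 at 3 months (3.08, SE 0.68, limma adjusted p = 0.00173). BMP5 had 0.862 and 1.15 TPM at 1 month and 0.428 to 0.693 at 3 months, under the filter on low values, and was not tested.

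In adults AATK was low in replicates 1 and 3, at 0.104 and 0.195 TPM, and between 2.44 and 5.26 in the others. DNAH9 likewise was lowest in replicates 1 and 3, at 0.349 and 1.14. None of the 3 tested gate genes changed from 3 months to adult at the threshold: the limma adjusted p was 0.496 for DNAH9 and 0.105 for ATP8A2 and AATK.

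Of the 25 leading genes, 24 were tested and 18 rose from 1 to 3 months with none falling. Over all tested genes 37.5% rose and 15.5% fell, and 60.6% of the tested features higher in the gated cells rose. SPATA16 went from 0.102 and 0.066 TPM to 124, 101, 108 and 127 (log2 6.73, SE 0.70, limma adjusted p = 2.95e-06). TRPC7 went from 0 and 0.146 TPM to 77.7, 47.4, 49.5 and 75.2 (5.85, limma adjusted p = 9.28e-07). GALNT14 went from 0.1196 and 0.211 TPM to 24.9, 22.7, 25.9 and 21.9 (4.41, limma adjusted p = 5.79e-06). In these called genes the 1-month and 3-month libraries did not overlap, a gap that a call favours. The 6 that did not pass were TIAM2, SYT14, LAMA3, MYT1, NFASC and EYA1. SYT14 had 2.91 and 1.29 TPM at 1 month and 2.19 to 3.27 at 3 months.

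GALNT14 and SORCS3 fell from 3 months to adult. GALNT14 had 21.9 to 25.9 TPM at 3 months and 1.85 to 11.5 in adults (log2 -1.70, SE 0.37, limma adjusted p = 0.0289). SORCS3 had 30.6, 25.2, 25.8 and 21.1 TPM at 3 months and 3.12 to 12.5 in adults (-1.72, SE 0.36, limma adjusted p = 0.0266). CCNA1 had 109 to 135 TPM at 3 months and 16.2 to 79.6 in adults (-1.64, SE 0.39, limma adjusted p = 0.0425). In these 3 called genes the adults lay below all 3-month libraries, a gap that a call favours. The CCNA1 call was lost when any single 3-month library or adult replicate 4, 5 or 7 was left out (limma adjusted p of 0.0604 to 0.152), and with another pseudocount, no filter, FPKM, all 20 libraries or the replicate block (0.0572 to 0.124). It was kept without adult replicates 1, 3 or 6 (limma adjusted p of 0.0155 to 0.0327). The calls for GALNT14 and SORCS3 were lost when any single 3-month library was left out, with limma adjusted p of 0.0719 to 0.129, or when adult replicate 4 was left out (0.074 and 0.0705 by limma). The GALNT14 call was also lost without adult replicate 7 (limma adjusted p = 0.0561) and with a pseudocount of 0.1 TPM (0.051). With the replicate block both were lost (limma adjusted p = 0.0903 for GALNT14 and 0.0807 for SORCS3).

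SYCP1 followed another course. It had 3.17 and 4.73 TPM at 1 month, 36.0 in the 2-month polyA library, 20.4, 21.1, 15.1 and 36.5 at 3 months and 13.2 to 40.9 in adults. It rose from 1 to 3 months (log2 2.24, SE 0.45, limma adjusted p = 0.000787) and did not differ at the threshold between 3 months and adult (limma adjusted p = 0.666). GALNT14 and SPATA16 stood at 2.96 and 2.18 TPM in that 2-month library, far under their 3-month levels. That age has 1 polyA library and no replicate check.

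All 15 tested axonemal dyneins rose from 1 to 3 months, with a median log2 difference of 4.54. Their TPM summed to 4.73 and 5.00 at 1 month, 569 to 655 at 3 months and 60.9 to 466 in adults. Over all tested genes 37.5% rose and 15.5% fell. Of the assembly and docking genes 29 of 30 rose, of intraflagellar transport 18 of 24, of the piRNA pathway 12 of 20, of transcription factors and RNA regulators 11 of 15, and none of these fell. Of 5 synaptonemal genes 4 rose and TRIP13 fell. Other meiotic lists lay nearer the share over all genes. Of 12 genes for breaks and strand exchange 4 rose and 1 fell, and of 11 crossover genes 5 rose and 2 fell. Of 13 sex body genes 4 rose and none fell. Of 11 cohesin and kinetochore genes 6 rose and 1 fell. The rise was stronger for meiotic entry, with 5 of 6, and for division genes, with 10 of 16 rising and 2 falling. Of 21 tested genes of the BMP pathway 3 rose (BMPR2, ID4, SMAD7) and 7 fell (ACVR1, BAMBI, BMP2, BMP4, BMP7, ID1, ID3).

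From 3 months to adult none of the 15 axonemal dyneins passed (12 had an unadjusted p under 0.05, median log2 -1.59), nor did any of the 24 genes of intraflagellar transport (17 under 0.05, median -1.07) or of the 20 piRNA genes (6 under 0.05, median -0.52), all by limma. Over all 18890 tested genes 3926 had an unadjusted limma p under 0.05 in that contrast, with a median log2 of -0.20. Some somatic markers moved with age too, beside 37.5% of all tested genes that rose and 15.5% that fell from 1 to 3 months. Over that span 5 of 12 peritubular and stromal genes fell and 2 rose, and their sum was 2365 and 3304 TPM at 1 month and 407 to 525 at 3 months. Of 9 immune genes 1 rose and none fell, with sums of 74.0 and 79.2 TPM at 1 month and 232 to 308 at 3 months. Of 6 Leydig cell genes 4 rose and none fell. Of 10 Sertoli cell genes 4 rose and 1 fell, which is near the shares over all genes. Of 4 housekeeping genes ACTB, B2M and RPLP0 fell, and the list summed to 13113 and 12969.6 TPM at 1 month and 2156 to 2552 at 3 months. The part of these markers in the differences was not tested.

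**Figure D5:**
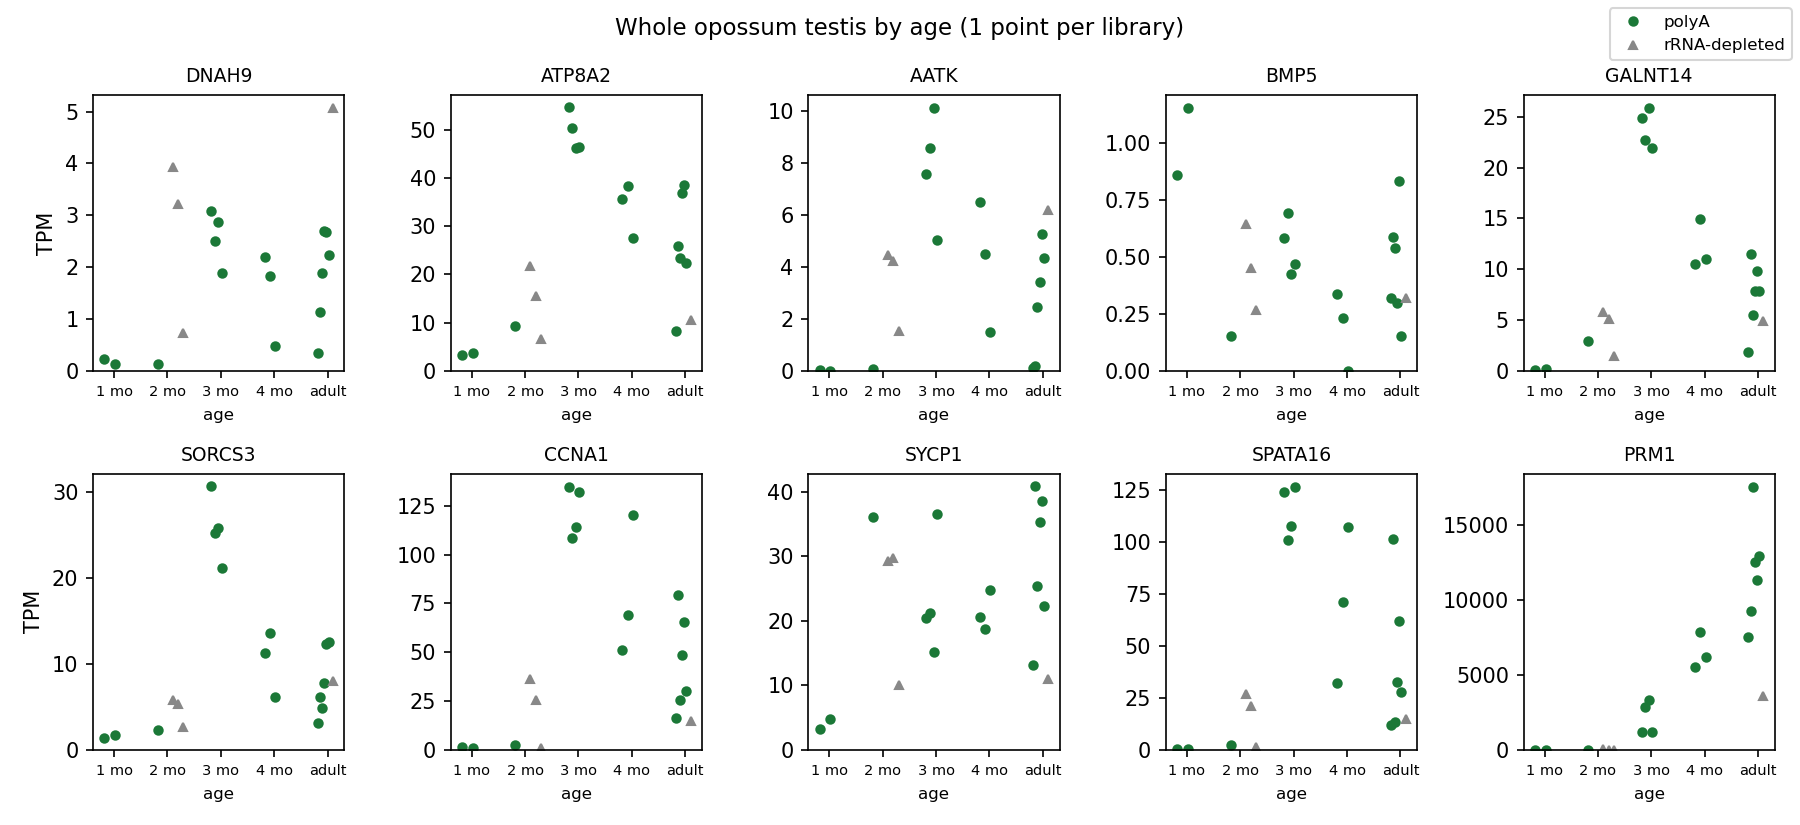
TPM by age in whole opossum testis for the 4 gate genes, GALNT14, SORCS3, CCNA1, SYCP1, SPATA16 and the spermatid gene PRM1, with 1 point per library (circles polyA, triangles ribosomal RNA-depleted). ATP8A2, AATK, GALNT14, SORCS3 and CCNA1 are highest at 3 months, while SYCP1 is already at 36.0 in the 2-month polyA library and the highest PRM1 values are adult.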

How the data were processed

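Single-cell libraries were made from dispersed adult testis with a 10x Genomics 3' kit and processed with Cell Ranger 6.0.1, per the submitters' processing notes. The deposited matrices hold estimated counts: 6.59% of the listed entries are whole within 1e-6 and 6.03% are 0, and how the fractions arose is not given in the sources used here. Gene names are those of the files (11523 of 32251 features). The build is labelled ASM229v1 for opossum single-cell library 3 only. The 3 opossum matrices sum to 25771011, 37747724 and 22710048 counts. The bulk tables give TPM, FPKM and coverage per gene, which the authors made with HISAT2 2.2.1, SAMtools 1.12 and StringTie 2.1.4, per the submitters' processing notes; rows of one gene were summed. From the deposited coverage and lengths the polyA libraries had 3.79 to 6.95 aligned gigabases.

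Counts were summed per library and class of cells and scaled to CPM with Python 3.11.15 and scanpy 1.11.5. The gated cells and gene lists were chosen with earlier results of these data known. The genes named are the 25 with the highest and the 8 with the lowest ratio, 6 each way against the other classes, the 6 leading unnamed features, and list genes with the highest levels; a few further genes were chosen after their values were seen. Clusters came from Leiden (leidenalg 0.10.2, resolution 0.5, 2000 variable genes, 20 components, 8 neighbours from each library). No doublets were removed: Scrublet's own cutoff marked at most 0.0538% of cells and so did not work, and an alternative removed the top 8% of scores. Bulk log2(TPM + 1) was fitted with limma 3.58.1 in R 4.3.3, for genes at 1 TPM in at least 2 libraries. TMM factors came from edgeR 4.0.16. The fit was tested on simulated data. Alternatives varied the gate, cell depth, doublets, rounding, pseudocount, scaling, filters, preparation, the replicate block and single libraries. Opossum sequences were not used here. Values of some list genes are not reported here.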

Additional observations from a re-analysis of the deposited data

Results flagged for a closer look

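Of 96 groups of 4 to 6 bulk polyA libraries tested for a library far from the rest (48 genes at 3 months and in adults), 9 held one by Dixon's test, where chance gives about 1 in 20. In 5 of the 9, adult replicate 1 was the lowest of the 6 adult libraries. ATP8A2 had 8.20 TPM there, with the nearest library at 22.4. CYP2U1, a round spermatid gene of the gate, had 3.49 TPM with the nearest at 16.9, and GPR161, an elongating spermatid gene of the gate, had 48.4 with the nearest at 91.9. ADAMTS18 had 0.250 TPM with the nearest at 1.28, and ENSMODG00000013137, the abundant unnamed feature of the gated cells, had 2.14 with the nearest at 20.5.

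SYT14 was highest in adult replicate 3, at 6.58 TPM with the nearest at 2.23. SLC9A3 was lowest in 3-month replicate 4, at 5.72 TPM with the nearest at 7.06. Of the unnamed features, ENSMODG00000048284 was highest in 3-month replicate 2, at 1.28 TPM with the nearest at 0.608, and ENSMODG00000032189 was highest in 3-month replicate 4, at 2.44 TPM with the nearest at 0.522.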

How the results depend on the processing

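Of 119 repeated counts and shares from the single cells 14 moved and 105 did not; of 110 from bulk 36 moved. With a gate minimum of 4 the gated share was 6.96% and the X-linked share 0.477%; with 2000 counts per cell the gated share was 17.8%; with entries rounded up the X-linked share was 0.742%, and without clusters 5 and 6, an alternative added after the data were seen, it was 0.316% and C1QC over the elongating-limit cells reversed to -1.90. With TMM factors 1074 features were lower than in the spermatogonia-gated cells. With no minimum CPM, 3568 features were higher and 2704 lower than in all other cells, 5960 higher than in the spermatogonia-gated cells, 4073 higher and 2586 lower than in the round-gated cells, and 5295 higher and 2185 lower than in the elongating-limit cells. With no replicate block (the lowest library against the highest), 969 were lower than in all other cells. Leaving out 1 library gave 8.81% to 11.2% for the gated share and 0.556% to 0.677% for the X-linked share.

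In bulk, of the features higher in the gated cells, a pseudocount of 0.1 TPM gave none rising and 14 falling from 3 months to adult, no filter gave 17 falling, FPKM gave 2 rising there and 139 falling from 1 to 3 months, and all 20 libraries with preparation as a covariate gave 58 falling. Of the features lower in the gated cells, FPKM gave 210 rising from 3 months to adult and the replicate block 7, and leaving out each library gave 36 to 275 there and 567 to 683 from 1 to 3 months. The same replicate numbers did not pair the libraries as a rule: of 13 pairs of same-numbered libraries 1 had r over 0.1, with a range of -0.262 to 0.667. The highest r was that of 4-month replicate 3 with adult replicate 3. Those libraries also had the highest synaptonemal sums of all polyA libraries, at 917 and 981 TPM. With the replicate block 0 rose and 0 fell from 3 months to adult, and 333 rose and 62 fell from 1 month to adult. Leaving out each library gave 834 to 1073 rising and 52 to 77 falling from 1 to 3 months, 0 to 2 rising and 1 to 165 falling from 3 months to adult, and 466 to 1022 rising and 59 to 109 falling from 1 month to adult. The cause of these differences was not tested. Over single genes, 811 of 975 single-cell values and 1506 of 1627 bulk calls did not move.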
